A study of Rattus norvegicus with 4 samples.

Results

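The collagen genes of neonatal rat cardiomyocyte cultures were taken as every listed gene whose symbol is Col, a number, the letter a and a number. This gave 41 entries with 40 symbols, since Col23a1 is listed at 2 Ensembl identifiers, among 15731 listed genes. Of these, 23 had an RPKM above 1.0 in the control library and were compared between libraries. RPKM is a level in which the reads of a gene are divided by its length and by the library size. By class, 8 of 11 fibrillar entries, 5 of 5 basement membrane entries and 10 of 25 other entries were compared. Col4a3 of type IV and Col6a3 of type VI collagen were not among the listed symbols, so these types were not covered in full.

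Collagens are proteins of the extracellular matrix in which chains rich in glycine and proline wind into a triple helix. Fibrillar collagens assemble into the fibrils that carry tension between heart muscle cells, basement membrane collagens form the sheet that surrounds each cardiomyocyte and vessel, and the remaining collagens decorate fibrils, form beaded filaments or lie at the border of the membrane. In the heart most fibrillar collagen is made by fibroblasts, while type IV collagen is made by several cell types, and both are known for accumulating in fibrosis.

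The study asked how the transcriptome of cardiomyocytes responds to the members of the miR-106b to miR-25 cluster. Ventricular cardiomyocytes of wild type Wistar rats at postnatal day 1 (1 protocol text gives the day of birth) were freed with trypsin, plated for 2 h so that quickly adhering cells stayed behind, and recovered from the supernatant. They were then transfected with a mimic of a human miRNA, which was hsa-miR-106b-5p in the first group, hsa-miR-93-5p in the second and hsa-miR-25-3p in the third, or with the worm miRNA cel-miR-67 in the control group. RNA was harvested 72 h after transfection, and each of the 4 mimics gave 1 library, so no difference below has a replicate check and no test between conditions was possible. All 4 groups shared the serum-containing medium and the Lipofectamine RNAiMAX transfection. The dose is given as 25 nM in one label text and as 25 mM in another. The preplating step leaves some other heart cells in such cultures, and in bulk RNA fewer cells of a type and less RNA per cell cannot be told apart.

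The mature miRNAs are shown because their seeds divide the 3 mimics into 2 groups. The rat sequences are from RefSeq (GRCr8, chromosome 12, minus strand), written 5′ to 3′ with the seed, bases 2 to 8, in capitals.
rno-miR-106b-5p: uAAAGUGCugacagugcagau
rno-miR-93-5p: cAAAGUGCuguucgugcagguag
rno-miR-25-3p: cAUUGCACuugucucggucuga
miR-106b and miR-93 have the same seed, AAAGUGC, and the seed of miR-25 is AUUGCAC.

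The libraries held 15175185 to 18797234 reads on listed genes, recovered as whole numbers from the steps of the RPKM values, and the compared collagens had 181 to 37904 reads in the control library with a median of 4788. A log2 fold change is the log2 of the ratio of RPKM in a mimic library over cel-miR-67, with no pseudocount, and brackets give its 95% exact (Clopper-Pearson) interval, which covers counting error only. A gene is called higher or lower where the ratio passed 1.3-fold, the cutoff of the study, which is a size and not a test. The 3 comparisons share the 1 control library. All 10 cardiomyocyte markers were above RPKM 1.0 in the control library, with a summed RPKM of 22379.

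Collagen transcripts were abundant in the control cultures and lower in summed level in each of the mimic libraries, most so with miR-25. Their summed RPKM was 1561 in the miR-106b library, 1550 with miR-93, 1109 with miR-25 and 1915 in the control. The miR-25 library thus held 1.73-fold less than the control, while the miR-106b and miR-93 libraries lay close together between them. As a share of the reads on listed genes, collagens took 1.319% (95% exact interval 1.314 to 1.324) in the miR-106b library, 1.354% (1.348 to 1.360) with miR-93, 1.004% (0.999 to 1.009) with miR-25 and 1.504% (1.498 to 1.510) in the control. Fibrillar collagens summed to an RPKM of 736, 809, 385 and 920 in the same order of libraries. Basement membrane collagens summed to 582, 483, 537 and 682, and the other collagens to 243, 258, 187 and 313. The composition of the collagen message therefore differed in the miR-25 library, where fibrillar collagens made up 34.7% of the summed collagen RPKM against 48.0% in the control, and basement membrane collagens 48.4% against 35.6%. With miR-106b and miR-93, fibrillar collagens made up 47.1% and 52.2%.

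**Figure D1:**
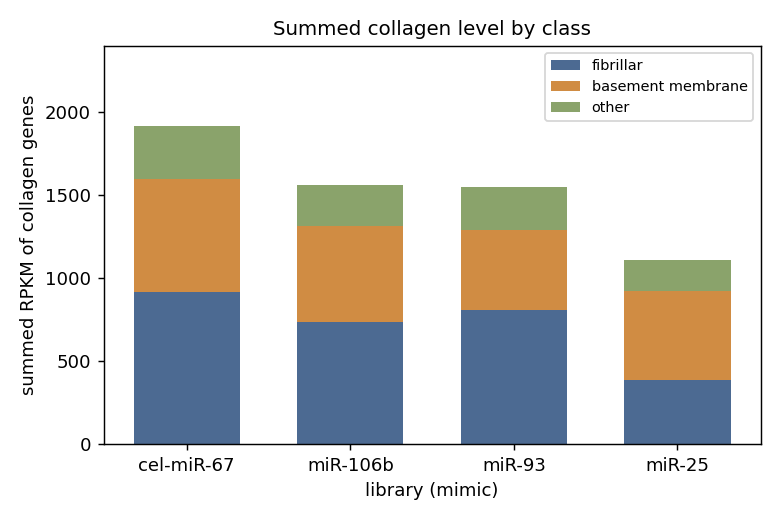
Summed RPKM of all 41 collagen entries in each library, stacked by class, with 1 library per mimic and no error bar. The fibrillar part is 385 in the miR-25 library against 920 in the cel-miR-67 library, while the basement membrane part is 537 against 682.

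The most abundant collagen in the control library was Col4a2, which ranked 134 among all listed genes by RPKM, followed by Col3a1 at rank 142, Col1a2 at 170, Col4a1 at 206 and Col5a2 at 267. In the miR-25 library Col4a2 ranked 123 and Col4a1 230, while Col3a1 ranked 311 and Col1a2 568. The order of the leading chains therefore differed between these libraries, with Col3a1 and Col1a2 below both type IV chains in the miR-25 library.

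**Figure D2:**
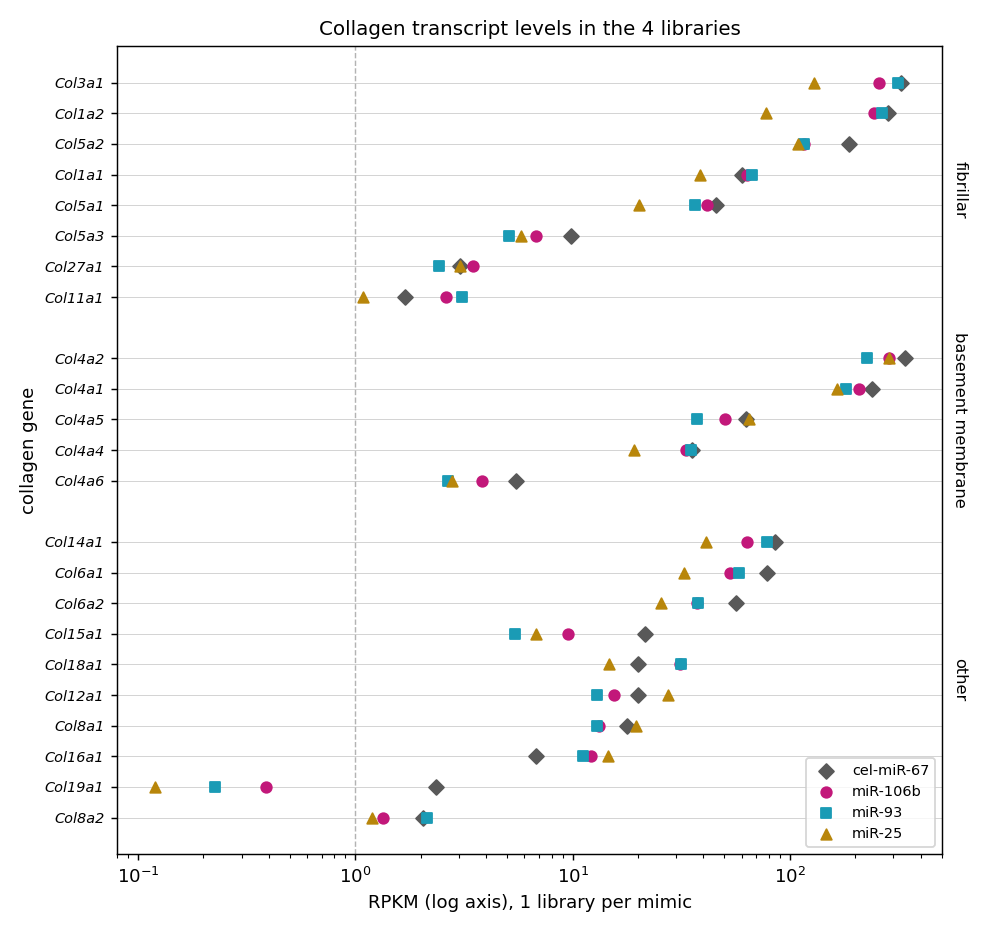
RPKM of the 23 compared collagen genes in the 4 libraries on a log axis, ordered within class by the level in the control, with the dashed line at RPKM 1.0. For Col1a2 the miR-25 point at 77.6 stands far below the other 3, which lie between 243.7 and 284.2, and for Col19a1 all mimic points lie below 0.4 against 2.35 in the control.

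Lower calls outnumbered higher calls among the 23 compared collagens with each mimic. For miR-106b and miR-93 most of that excess was absent when no RPKM cutoff was used. With miR-106b, 10 of 23 collagens were lower and 3 higher, where 14.1% of the 11543 genes above RPKM 1.0 in the control were lower and 11.6% higher. With miR-93, 12 were lower and 3 higher, against 17.2% and 14.8% of all genes. With miR-25, 17 were lower and 2 higher, against 24.7% and 18.8%. As shares of the 23 collagens, the lower calls came to 43.5%, 52.2% and 73.9%. The median log2 fold change of the 23 collagens was -0.34 for miR-106b, -0.41 for miR-93 and -0.79 for miR-25, and the median of all 11543 genes was -0.01, -0.01 and -0.03. The classes did not move alike. Fibrillar collagens had medians of -0.18, -0.20 and -0.78, basement membrane collagens -0.24, -0.58 and -0.53, and the other collagens -0.50, -0.44 and -0.91. Because the RPKM cutoff was applied to the control library, a gene that was high only in the control passed it and a gene that was high only with a mimic did not. Without any RPKM cutoff, 13 collagens were higher and 14 lower for miR-106b, 13 higher and 14 lower for miR-93, and 9 higher and 23 lower for miR-25, with the added entries all holding few reads. With RPKM above 1.0 in both libraries, 9 were lower and 3 higher for miR-106b, and 11 lower and 3 higher for miR-93. With a mean RPKM of the 4 libraries above 1.0, chosen after seeing the data, these counts were 9 and 4, and 11 and 4.

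**Figure D3:**
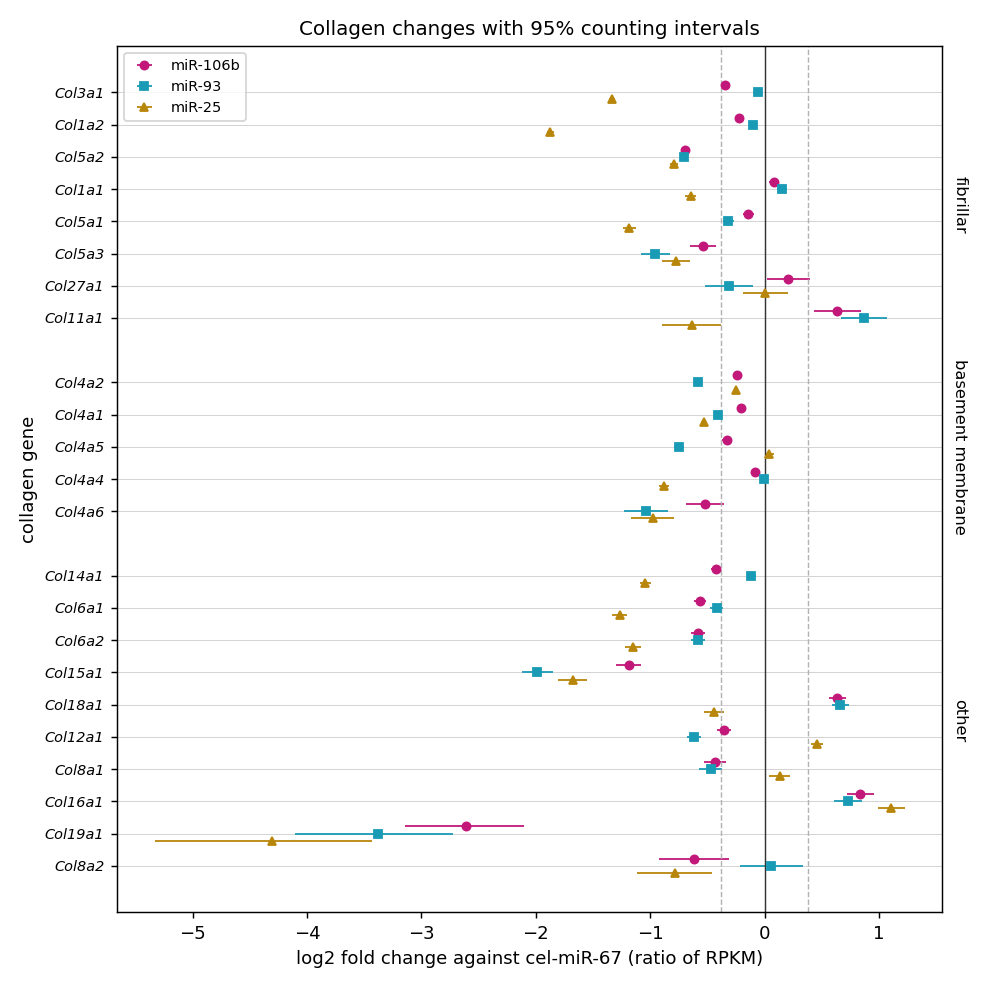
Log2 fold change of RPKM against cel-miR-67 for the 23 compared collagen genes, with 95% exact counting intervals and dashed lines at 1.3-fold, 1 library per mimic. The miR-25 points of the fibrillar genes reach -1.87 for Col1a2 while the miR-106b and miR-93 points of Col3a1, Col1a2, Col1a1 and Col5a1 lie between the dashed lines, and Col16a1 is right of the upper line with each mimic.

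Among the fibrillar collagens, 7 of 8 were lower with miR-25, whereas 2 of 8 were lower with miR-106b and 2 of 8 with miR-93. Of all genes, 24.7% were lower with miR-25, 14.1% with miR-106b and 17.2% with miR-93. In so short a list, 2 of 8 is close to the last 2 shares. Col1a2, a chain of type I collagen, which is the main fibril protein of the heart, had an RPKM of 243.7 in the miR-106b library, 264.7 with miR-93, 77.6 with miR-25 and 284.2 in the control. It was 3.66-fold lower with miR-25 (log2 -1.87 [-1.91, -1.84]), while the other log2 fold changes were -0.22 [-0.24, -0.20] and -0.10 [-0.13, -0.08]. Col1a1, the partner chain of Col1a2, had 63.6, 66.8, 38.4 and 60.1 in the same order. Its log2 fold change was -0.64 [-0.69, -0.60] with miR-25 and 0.08 and 0.15 with miR-106b and miR-93, so the miR-25 library was low for both chains but by a much smaller factor for Col1a1. Col3a1, the chain of type III collagen, which forms thin fibrils together with type I, had an RPKM of 257.5, 314.0, 129.7 and 326.5. Its level with miR-25 was 2.52-fold lower (log2 -1.33 [-1.36, -1.31]), and with miR-106b it was just inside the cutoff at -0.34 [-0.36, -0.32].

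The type V chains, which set the diameter of type I fibrils, differed in pattern among themselves. Col5a2 had an RPKM of 116.0, 115.6, 108.6 and 188.0, so the 3 mimic libraries were alike and all below the control. The log2 fold changes of Col5a2 were -0.70 [-0.73, -0.67], -0.70 [-0.73, -0.67] and -0.79 [-0.82, -0.76]. Col5a3 had 6.80, 5.09, 5.78 and 9.87, and was also lower with each mimic, at -0.54, -0.96 and -0.77. Col5a1 instead followed the type I pattern, with 41.4, 36.6, 20.1 and 45.7, and its log2 fold change was -1.18 [-1.24, -1.12] with miR-25 against -0.14 and -0.32 with miR-106b and miR-93.

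The remaining fibrillar chains are collagens best known from cartilage and were near the RPKM cutoff. Col11a1 of type XI had an RPKM of 2.62, 3.09, 1.09 and 1.69. It was higher with miR-106b (log2 0.63 [0.43, 0.84]) and miR-93 (0.87 [0.67, 1.08]) and lower with miR-25 (-0.64 [-0.89, -0.38]), and was the only fibrillar gene called in opposite directions. With a pseudocount of 1 RPKM its miR-25 value was -0.37 and inside the cutoff. Col27a1, at 3.49, 2.44, 3.03 and 3.02, was within 1.3-fold with every mimic, and it was the only compared collagen with no call. The members just above the RPKM cutoff in the control were Col11a1, Col8a2 at 2.05 and Col19a1 at 2.35, and those just below it were Col9a3 at 0.994, Col13a1 at 0.434 and Col24a1 at 0.391.

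Of the 5 basement membrane collagens, 1 was lower in the miR-106b library, 4 in the miR-93 library and 3 in the miR-25 library, where 14.1%, 17.2% and 24.7% of all genes were, and none was higher. Col4a1 and Col4a2 encode the chains of the type IV network found in nearly all basement membranes. Col4a2 had an RPKM of 286.7 in the miR-106b library, 226.4 with miR-93, 284.8 with miR-25 and 338.5 in the control, and passed the cutoff with miR-93 alone, at -0.58 [-0.60, -0.56]. Its log2 fold changes with miR-106b and miR-25 were -0.24 and -0.25. Col4a1 had 208.1, 180.8, 165.7 and 239.4, with log2 fold changes of -0.20, -0.41 and -0.53, so that it passed with miR-93 and miR-25. On reads scaled to the listed genes instead of the deposited library sizes, Col4a1 with miR-93 was at -0.26 and no longer past the cutoff, while Col4a1 with miR-25 was still past it at -0.38, so the lower count with miR-93 was then no larger than with miR-25.

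Col4a5 and Col4a6 form a second type IV network found in smooth muscle and some epithelia. Col4a5 had an RPKM of 50.2, 37.6, 64.8 and 63.0, lower with miR-93 (log2 -0.75 [-0.79, -0.70]) and level with the control in the miR-25 library (0.04 [0.00, 0.08]). Col4a6 had 3.84, 2.68, 2.79 and 5.50 and was lower with each mimic, at -0.52, -1.04 and -0.98. Col4a4, a chain of the network of the kidney filter, had 33.3, 35.1, 19.1 and 35.3. Only its miR-25 value stood apart, with a log2 fold change of -0.88 [-0.93, -0.84]. The length behind the RPKM of Col4a4 came out at 13576 bases, against 4917 to 6579 for the other type IV genes, so its level per length rests on a much longer gene model.

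The genes Col4a1 and Col4a2 start back to back, 76 bases apart in GRCr8, and the shared region is shown because both genes are read outward from it. It lies at chr16:84885521-84885596 and is given on the plus strand, with the single match to GGGCGG, searched on both strands and here read as CCGCCC, in capitals.
Col4a2 to Col4a1: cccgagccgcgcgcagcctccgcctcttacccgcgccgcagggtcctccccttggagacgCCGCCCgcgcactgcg
GC bases made up 78.9% of it. Although both genes leave from this region, their ratio was not the same in every library. Col4a1 over Col4a2 was 0.726 [0.716, 0.736] in the miR-106b library, 0.798 [0.786, 0.811] with miR-93, 0.582 [0.573, 0.591] with miR-25 and 0.707 [0.697, 0.717] in the control. The counting intervals of miR-93 and miR-25 did not overlap that of the control, and that of miR-106b did.

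Among the other collagens, 7 of 10 were lower in the miR-106b library, 6 in the miR-93 library and 7 in the miR-25 library, and 2 were higher with each mimic. Of all genes, 14.1%, 17.2% and 24.7% were lower and 11.6%, 14.8% and 18.8% higher in the same order, so the higher counts lie near those of all genes. Type VI collagen forms beaded filaments that link the basement membrane of muscle to the fibrils around it. Its chain Col6a1 had an RPKM of 53.0 in the miR-106b library, 58.6 with miR-93, 32.6 with miR-25 and 78.4 in the control. Its partner Col6a2 had 37.6, 37.7, 25.4 and 56.3, so Col6a1 and Col6a2 were both lowest with miR-25 and highest in the control. The chain Col6a3 was not listed. The log2 fold changes were -0.56, -0.42 and -1.27 for Col6a1 and -0.58, -0.58 and -1.15 for Col6a2. On reads scaled to the listed genes, the miR-93 value of Col6a1 was -0.27 and inside the cutoff, and Col6a2 passed with every mimic on both scalings.

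The multiplexins Col15a1 and Col18a1, collagens with an interrupted helix that sit at basement membranes, went opposite ways with miR-106b and miR-93. Col15a1 had an RPKM of 9.49, 5.46, 6.75 and 21.6, with the control above the sum of any 2 mimic libraries. The log2 fold changes of Col15a1 were -1.19 [-1.29, -1.08] for miR-106b, -1.99 [-2.12, -1.85] for miR-93 and -1.68 [-1.80, -1.55] for miR-25. Col18a1, the source of the fragment endostatin, had 31.2, 31.7, 14.7 and 20.0. It was higher with miR-106b (0.64 [0.57, 0.71]) and miR-93 (0.66 [0.59, 0.74]) and lower with miR-25 (-0.44 [-0.53, -0.35]). The miR-25 call of Col18a1 was lost at -0.29 when reads were scaled to the listed genes.

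Collagens that attach to the surface of fibrils, known as FACIT collagens, held both the largest decrease and the only increase shared by the 3 mimics among the compared genes. Col16a1 had an RPKM of 12.1, 11.2, 14.6 and 6.77, so every mimic library was above the control. Its log2 fold changes were 0.84 [0.72, 0.96], 0.73 [0.60, 0.85] and 1.11 [0.99, 1.23]. Col19a1 had an RPKM of 0.387, 0.227, 0.119 and 2.35, from 39, 21, 11 and 181 reads. Its log2 fold changes of -2.61 [-3.14, -2.10], -3.38 [-4.10, -2.72] and -4.31 [-5.33, -3.43] were the largest of any compared collagen and rest on few reads, and with a pseudocount of 1 RPKM they were -1.27, -1.45 and -1.58. Col19a1 was compared only because the control library, where it was high, was above RPKM 1.0, and it would not enter with a cutoff of 1.0 in both libraries or on the mean of the 4. Col14a1 had 63.3, 78.4, 41.3 and 85.0 and log2 fold changes of -0.43, -0.12 and -1.04, of which the first was -0.34 and inside the cutoff on reads scaled to the listed genes. Col12a1 had 15.58, 12.99, 27.36 and 19.92, lower with miR-93 (-0.62 [-0.68, -0.55]) and higher with miR-25 (0.46 [0.41, 0.51]). The network collagens of vessel walls, Col8a1 and Col8a2, had 13.2, 12.9, 19.6 and 17.8, and 1.34, 2.14, 1.19 and 2.05. Col8a1 was lower with miR-106b and miR-93, at -0.43 and -0.47, and within the cutoff with miR-25 at 0.13. On reads scaled to the listed genes these calls of Col8a1 were lost, at -0.35 and -0.32. Col8a2 was lower with miR-106b (-0.62 [-0.92, -0.31]) and miR-25 (-0.79 [-1.11, -0.46]) and at 0.06 with miR-93.

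Taking the 3 comparisons side by side, which share the control library, 7 collagens were lower with every mimic, namely Col5a2, Col5a3, Col4a6, Col6a1, Col6a2, Col15a1 and Col19a1, each except Col6a1 also on reads scaled to the listed genes, with Col19a1 resting on the cutoff in the control. A further 4 were lower with 2 mimics and 10 with 1 mimic. Of the 10, Col3a1, Col1a2, Col1a1, Col5a1, Col11a1, Col4a4 and Col18a1 were lower with miR-25, and Col4a2, Col4a5 and Col12a1 with miR-93. Higher calls were shared by 3 mimics for Col16a1 and by miR-106b and miR-93 for Col11a1 and Col18a1. Calls shared between mimics were not counted over all genes, so whether these shared counts are unusual is not known.

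The 18 entries at or below RPKM 1.0 in the control held few reads. Of them, 3 exceeded 1.0 in a mimic library. Col9a3, a FACIT chain of cartilage, had an RPKM of 2.46 in the miR-106b library, 2.78 with miR-93, 0.576 with miR-25 and 0.994 in the control. Col13a1, a transmembrane collagen, had 0.604, 1.03, 0.187 and 0.434. For both genes the order of libraries was that of Col11a1, with miR-93 highest and miR-25 lowest. Col26a1 had 1.13, 0.855, 0.869 and 0.0870, from 102, 71, 72 and 6 reads, so each mimic library was above the control.

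The mimics were also compared with each other. The ratio itself does not use the control library, but the 23 collagens and all genes beside them were still chosen by their level in it. Between miR-93 and miR-106b, whose seeds are the same, 16 of 23 collagens were within 1.3-fold, 6 were lower with miR-93 and 1 was higher, where 9.04% and 7.47% of all genes were lower and higher. The median log2 ratio was -0.04. The largest difference was in Col15a1, at -0.80 [-0.95, -0.65], followed by Col19a1 at -0.77, whose interval from -1.61 to 0.03 includes no difference. Col27a1 and Col4a6 were at -0.52, and Col4a5 and Col5a3 at -0.42. Col8a2, at 0.68 [0.39, 0.97], was the gene higher with miR-93.

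Between miR-25 and miR-106b, 13 collagens were lower with miR-25 and 2 higher, against 24.4% and 22.2% of all genes, with a median log2 ratio of -0.49. Apart from Col19a1, the differences were largest for Col1a2 at -1.65 [-1.68, -1.62], Col11a1 at -1.273 [-1.500, -1.051], a gene near the RPKM cutoff, Col18a1 at -1.080 [-1.156, -1.004], Col5a1 at -1.04 [-1.10, -0.98] and Col3a1 at -0.99 [-1.02, -0.96]. Col19a1 itself was at -1.70 [-2.81, -0.71] on few reads. The genes higher with miR-25 were Col12a1, at 0.81 [0.76, 0.86], and Col8a1, at 0.57 [0.47, 0.66]. Col4a2 differed by -0.01 [-0.03, 0.01] and Col5a2 by -0.09 [-0.13, -0.06], so these abundant chains were nearly level between the miR-25 and miR-106b libraries.

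Chains that assemble into 1 protein or that lie side by side in the genome did not keep a fixed balance. Col1a1 over Col1a2, on the RPKM scale, was 0.261 in the miR-106b library, 0.252 with miR-93, 0.495 [0.480, 0.511] with miR-25 and 0.211 [0.206, 0.217] in the control. The miR-25 library stood apart, with the lowest level of both chains and the highest ratio. Col5a1 over Col5a2 went the other way, at 0.357, 0.317, 0.185 and 0.243, so that miR-25 was below the control and the others above. Col3a1 over its genomic neighbour Col5a2 was 2.22, 2.72, 1.19 and 1.74, again lowest with miR-25. The head to head pair Col4a5 over Col4a6 was 13.10, 14.01, 23.22 and 11.45, and Col8a1 over Col8a2 was 9.88, 6.03, 16.4 and 8.70. Col6a1 over Col6a2 had the narrowest range of the 7 pairs, at 1.41, 1.56, 1.28 and 1.39, and the intervals of miR-106b (1.35 to 1.47) and cel-miR-67 (1.34 to 1.45) overlapped.

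**Figure D4:**
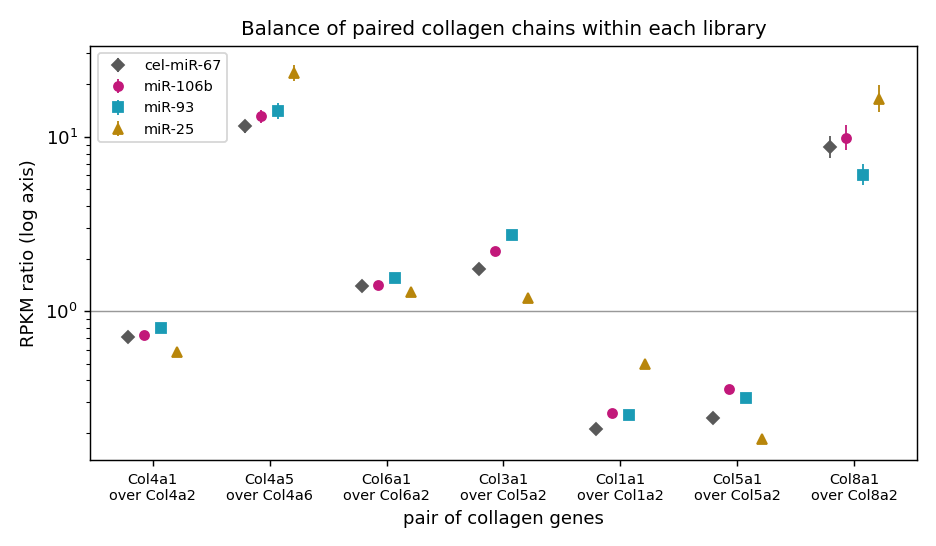
RPKM ratio of 7 pairs of collagen chains within each library on a log axis, with 95% exact counting intervals that are often smaller than the points, 1 library per mimic. Col1a1 over Col1a2 is highest with miR-25 at 0.495, whereas Col3a1 over Col5a2 and Col5a1 over Col5a2 are lowest there at 1.19 and 0.185.

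The motif of the shared type IV region was also counted in other promoters, taken from RefSeq GRCr8 as 250 bases before to 50 bases after each start. The letters GGGCGG on either strand were found in 34.9% of 27457 promoters and in 18 of the 31 collagen promoters that matched by symbol. Of the 23 compared collagens 18 had a promoter, and 12 of these held the motif, namely Col11a1, Col16a1, Col18a1, Col27a1, Col4a1, Col4a2, Col4a5, Col4a6, Col5a1, Col5a3, Col8a1 and Col8a2. They include genes with higher calls, such as Col16a1, and genes with lower calls, such as Col4a6. The windows of Col4a1 and Col4a2 both cover their shared region, so its single match counts for both genes. The share of 34.9% is over all promoters and not over those of genes above RPKM 1.0. Whether the match went with a direction was not tested.

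Genes that modify, fold and export collagen chains had values that went with the collagens for some members and against them for others. Of 17 genes for chain hydroxylation, glycosylation and folding, 5 were lower and 1 higher in the miR-106b library, 5 and 2 in the miR-93 library, and 6 and 5 in the miR-25 library. The shares of all genes that were lower and higher were 14.1% and 11.6%, 17.2% and 14.8%, and 24.7% and 18.8% in the same order, and with miR-25 the counts of this list lie not far from them. Serpinh1, the collagen chaperone of the endoplasmic reticulum, had an RPKM of 248.1, 224.5, 90.1 and 305.2. Its log2 fold change of -1.76 [-1.80, -1.72] with miR-25 was close in size to that of Col1a2, against -0.30 and -0.44 with miR-106b and miR-93. P4hb, a subunit of the prolyl hydroxylase that stabilises the helix, had 220.1, 221.4, 239.9 and 338.9 and was lower with each mimic, at -0.62, -0.61 and -0.50. Scaling to the listed reads, which adds 0.15 to every miR-25 log2 fold change, puts the miR-25 value of P4hb inside the cutoff. P3h2, a prolyl hydroxylase that acts on type IV collagen, had 5.98, 2.19, 13.6 and 9.18, lower with miR-106b and miR-93 at -0.62 and -2.07 and higher with miR-25 at 0.57. Colgalt2, a collagen galactosyltransferase, had the same directions, at -0.99, -0.70 and 0.75. Of 5 export genes, 2 were lower with each mimic, and 1 was higher with miR-25, beside the same shares of all genes. Mia3, a cargo receptor for procollagen, was at -0.30, -0.23 and -1.13, and of the coat proteins of export vesicles Sec24d was at -0.47, -0.46 and -0.20, Sec13 at 0.02, -0.14 and -0.44, and Sar1b at -0.58, -0.64 and 0.17.

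The enzymes that process and cross-link fibrils outside the cell were few, and their counts stand against the same 14.1%, 17.2% and 24.7% of all genes lower and 11.6%, 14.8% and 18.8% higher. Of 5 genes of propeptide removal, 2, 1 and 3 were lower in the order of mimics used above, and none of the 5 was higher. Pcolce, which enhances removal of the C-terminal propeptide, had an RPKM of 82.7, 87.9, 79.4 and 138.5, with log2 fold changes of -0.74, -0.66 and -0.80. Adamts2, which removes the N-terminal propeptide, was at -0.45, -0.01 and -0.62, its relative Adamts14 at -0.11, -0.20 and -0.74, and Tll1 at -0.36, -0.28 and 0.10. Of 6 cross-linking genes, 3 were lower and 1 higher in the miR-106b library, 3 were lower with miR-93, and 1 was lower and 3 higher with miR-25. Lox, lysyl oxidase, had 9.14, 9.73, 29.4 and 12.8, so the miR-25 library was the highest, at 1.20 [1.12, 1.28], where Col1a2 and Col3a1 were at their lowest. Loxl4 was at -0.69, -0.49 and 1.20, Loxl3 at 0.04, -0.15 and 0.51, and Loxl2 at -0.44, -0.58 and -0.23.

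Of 8 proteins that bind fibrils, 5, 4 and 3 were lower and 0, 1 and 1 higher in the order of mimics used above, beside 14.1%, 17.2% and 24.7% of all genes lower and 11.6%, 14.8% and 18.8% higher. Dcn, decorin, had an RPKM of 6.28, 5.80, 9.30 and 16.04 and log2 fold changes of -1.35, -1.47 and -0.79. Postn, periostin, had 47.8, 68.4, 43.1 and 106.8, at -1.16, -0.64 and -1.31. Both were lower with each mimic. Thbs2, thrombospondin, at -1.95, -1.60 and 0.12, and Lum, lumican, at -1.01, -0.76 and 0.87, were lower only with miR-106b and miR-93.

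Of 9 other basement membrane proteins, 3, 2 and 4 were lower and 1, 2 and 1 higher, where 14.1%, 17.2% and 24.7% of all genes were lower and 11.6%, 14.8% and 18.8% higher, so several of these counts lie near those of all genes. The laminin chain Lama4 was at -0.42, -1.10 and -0.40, Lama2 at -0.52, -0.35 and -1.44 and Lamc1 at -0.67, -1.04 and -0.21, while Agrn, agrin, was at 0.65, 0.86 and 0.22. Of 5 collagen receptor genes, 2, 3 and 0 were lower and 0, 1 and 1 higher, against the same shares of all genes, to which 0 of 5 lower with miR-25 is close in so short a list. Itgb1, the beta chain of the collagen-binding integrins, had an RPKM of 431.5, 409.0, 698.2 and 631.7, at -0.55, -0.63 and 0.14. The receptor kinase Ddr1 was at -0.53, -0.95 and -0.12, and the integrin chains Itga1 at -0.19, -0.48 and 0.20 and Itga11 at -0.18, 0.54 and 0.57.

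Marker genes of the cell types that such cultures can hold were measured beside the collagens, and their part in the collagen values was not tested. None of the listed markers was at 0 in any library. The counts below stand beside 14.1%, 17.2% and 24.7% of all genes lower and 11.6%, 14.8% and 18.8% higher, in the order used above. A single call in one of the shorter lists therefore says little about a cell type. Of 9 fibroblast markers outside the collagens that were compared, 5 were lower in the miR-106b library, 5 with miR-93 and 4 with miR-25, where 1 was higher. Their summed RPKM was 190 in the miR-106b library, 206 with miR-93, 188 with miR-25 and 271 in the control, and most of it came from Fn1 and Postn. In the miR-25 library against the miR-106b library, Tcf21 was lower, at 5.16 against 12.1. Lum, at 10.1 against 2.74, and Thy1, at 16.9 against 11.1, were higher there. Tcf21 was below its control level of 15.9 in both libraries. These genes were chosen after their values were seen. Others of the list differed less, such as Pdgfra at 3.95 against 3.39, Postn at 43.1 against 47.8 and Ddr2 at 15.8 against 16.1. Dcn, Lum, Postn, Fn1 and Ddr2 of this list are also among the fibril partners and receptors above. Of 7 smooth muscle and pericyte markers, 6 were higher and 1 lower with miR-25, whereas 2 and 4 were lower and 1 and 0 higher with miR-106b and miR-93, with a summed RPKM of 710, 605, 2079 and 772. The 10 cardiomyocyte markers were all lower with miR-25, and 4 and 5 of them were lower and 1 higher with miR-106b and miR-93, with sums of 19758, 14797, 12828 and 22379. Scaling to the listed reads adds 0.08, 0.15 and 0.15 to the log2 fold changes and puts some of these lower calls inside the cutoff. They were Myh6 (-0.43) with miR-106b, Actn2 (-0.51) and Myl2 (-0.45) with miR-93, and Tnnt2 (-0.48) and Actc1 (-0.51) with miR-25. All 5 compared macrophage markers of 7 were lower with miR-25, and 1 and 2 were higher with miR-106b and miR-93, with sums of 14.4, 17.1, 6.24 and 13.2. Of 4 epicardial markers 2 were higher with each mimic and none was lower, with sums of 23.5, 23.8, 36.1 and 19.6. Endothelial markers, of which 3 could be compared, summed to 6.49, 6.80, 5.75 and 8.56, with 2, 1 and 2 lower and 1 higher each time. Schwann cell markers summed to 2.01, 1.77, 1.02 and 1.77, and the 1 that could be compared was lower with miR-25.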

How the data were processed

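RNA-seq of 4 libraries, 1 for each mimic, was analysed from the RPKM values that the authors deposited. As the methods and labels state, 50-bp single reads from TruSeq libraries were checked with FASTQC, trimmed with Cutadapt and aligned by the authors with STAR 2.7 to Rnor_6.0, and the authors converted rounded gene counts with the rpkm function of edgeR. The counting program and its use of strand are not given in the sources used here, so overlapping genes may share reads. Whole reads were recovered for 100% of genes by finding the library size and gene length that make reads whole within 0.0002, and on simulated data 96.45% of 15573 genes were recovered exactly. These sizes were proportional to listed reads times TMM factors to within 0.291%. Fold changes are ratios of RPKM for genes above 1.0 in cel-miR-67, with 95% Clopper-Pearson intervals. All collagens above 1.0 were named, and from each list up to 4 genes past 1.3-fold with all mimics or with the largest ratio. The collagens, the gene and marker lists and the rules were chosen with earlier results of these data known. Sequences were taken from RefSeq GRCr8 and matched by symbol. Protein repeats and seed matches in transcripts were not analysed here. The planned ratio of Col4a3 over Col4a4 was not formed, because Col4a3 was not listed. Alternatives were other RPKM and fold cutoffs, a pseudocount of 1, centring on the median gene, scaling to listed reads, another class for Col15a1 and Col18a1, and, chosen after seeing the data, a mean RPKM above 1.0 over the 4 libraries. Intervals used scipy 1.17.1 and tables numpy 2.4.6 with pandas 2.3.3, and figures were drawn with matplotlib 3.10.9 under Python 3.11.15.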

Additional observations from a re-analysis of the deposited data

How the results depend on the processing

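With 1 library per mimic, the spread between cultures is unknown and no library could be left out. No paired analysis was possible because each mimic has 1 library. Of the counts, medians and sums over the collagens under the alternatives, 40 moved (counts by over 1.5 times, other values by more than their counting error) and 1 reversed. Without an RPKM cutoff, which adds entries with few reads, 13 collagens were higher with the miR-106b mimic, 13 with miR-93 and 9 with miR-25, and in this order the medians of all collagens were -0.14, -0.080 and -0.64, and those of other collagens -0.013, 0.057, a reversal with miR-93, and -0.17, while the fibrillar medians were 0.082 for miR-106b, of opposite sign to the -0.18 of the report, and -0.057 for miR-93. At 1.5-fold, 4 collagens were lower with miR-106b, 7 with miR-93, and 1 higher with miR-25. At 2-fold, 0, 0 and 1 were higher and 2, 3 and 8 lower. Scaling to listed reads shifted every log2 fold change by 0.08, 0.15 and 0.15, which put the median of all genes at 0.07, 0.13 and 0.12. The collagen medians were then -0.26, -0.26 and -0.64, the fibrillar ones -0.10, -0.059 and -0.63, the basement membrane ones -0.16, -0.43 and -0.38, and the other collagens -0.30 with miR-93 and -0.77 with miR-25. On that scaling Col3a1, Col1a2, Col4a4 and Col14a1, none of them called with miR-93, were at 0.09, 0.04, 0.14 and 0.03. With a pseudocount of 1, the medians were -0.41 for other collagens with miR-106b, and -0.68 for all and -0.75 for other collagens with miR-25. With RPKM above 2.0 in both libraries, the fibrillar median with miR-93 was -0.31 and that of other collagens with miR-25 -0.74, which was -0.79 above 1.0 in both. With the mean of the 4 libraries above 1.0, chosen after seeing the data, the miR-93 medians were -0.32 for all and -0.27 for other collagens, and the miR-25 median of other collagens was -0.79. Without the 2 most abundant collagens, the log2 ratio of summed RPKM with miR-25 was -0.85 against -0.79. The intervals cover counting error only.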
